A study of Mus musculus with 10 samples.

Results

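The 33 genes described here take glucose into the cell, break it down to pyruvate and lactate, and sense or answer a shortage of oxygen. They were followed by RNA sequencing in cultured mouse embryonic stem cells, which derive from the early embryo and can form every tissue of the body. The members were taken by gene symbol as a named list of pathway steps and targets of the hypoxia-inducible factors, with no threshold on measured values, and all 33 are among the 30460 genes listed in every library. Levels are FPKM, reads scaled to exon length and to the library's counted reads, so that levels of different genes can be set side by side per length. The 10 libraries came from 4 groups of cells of the C57BL/6 strain. There were 3 libraries labelled Mga-/-, 2 of L3mbtl2-/-, 2 of Pcgf6-/- and 3 of wild type, called Mga knockout, L3mbtl2 knockout, Pcgf6 knockout and wild type below. No other allele or treatment is named in the labels. The sources used here do not tell how the knockouts were made or whether the libraries of a group are separate clones or cultures, so a p-value measures the spread between these samples alone, and that spread may be technical. The comparisons ask how each loss changes RNA levels relative to wild type.

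As background, glycolysis turns a glucose molecule into pyruvate in a chain of enzymes that begins with hexokinase and ends with pyruvate kinase, and lactate dehydrogenase turns pyruvate into lactate, which leaves the cell through a monocarboxylate transporter. Pluripotent stem cells in culture are known for a high rate of glycolysis. The hypoxia-inducible factors, HIF, are transcription factors whose alpha subunits are marked by prolyl hydroxylases when oxygen is present and then destroyed through the VHL ubiquitin ligase, and many glycolytic genes are among their targets. MGA, L3MBTL2 and PCGF6 are subunits of PRC1.6, a Polycomb complex that represses genes, in which MGA pairs with MAX and binds E-boxes, sites of the letters CACGTG.

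The HIF site has a core of the 5 letters ACGTG or GCGTG, and these letters were looked for on both strands in the RefSeq promoter windows of the members, from 250 bases before to 50 bases after each gene start (GRCm38.p6). Windows were found for 31 of the 33 members, 47 windows in all. Slc2a3 and Ndrg1 had none. ACGTG occurred in 55.3% of the members' windows and in 25.1% of the windows of all genes tested below, and in 74.2% of the member genes against 28.9% of the tested genes. GCGTG occurred in 53.2% of the members' windows and 49.3% of those of tested genes. CACGTG, which holds ACGTG once on each strand and is therefore counted under it as well, occurred in 10.6% of the members' windows and 9.98% of those of tested genes. Among the members called lower in L3mbtl2 knockout, 16 of the 20 genes with a window held ACGTG, a share of 80%, close to that of the whole list. These are matches of letters and not mapped binding sites. The windows below are those of the member with the largest fall (Egln3), of genes of the last steps and HIF targets that fell (Slc16a3, Ldha, Pgk1, Bnip3 and Ankrd37), of a member that rose in 2 knockouts (Hk2) and of a member that fell and whose window holds neither core (Tpi1). They are read 5′ to 3′ on the strand of the gene, with ACGTG and GCGTG of either strand in capitals. Their positions are chr12:54203825-54204124, minus strand for Egln3, chr11:120948817-120949116, plus strand for Slc16a3, chr7:46845554-46845853, plus strand for Ldha and chrX:106186850-106187149, plus strand for Pgk1. They are chr7:138909457-138909756, minus strand for Bnip3, chr8:45999801-46000100, minus strand for Ankrd37, chr6:82774405-82774704, minus strand for Hk2 and chr6:124814109-124814408, minus strand for Tpi1. Sequences are RefSeq's, and for Ldha the first of its 2 listed windows is shown.
Egln3: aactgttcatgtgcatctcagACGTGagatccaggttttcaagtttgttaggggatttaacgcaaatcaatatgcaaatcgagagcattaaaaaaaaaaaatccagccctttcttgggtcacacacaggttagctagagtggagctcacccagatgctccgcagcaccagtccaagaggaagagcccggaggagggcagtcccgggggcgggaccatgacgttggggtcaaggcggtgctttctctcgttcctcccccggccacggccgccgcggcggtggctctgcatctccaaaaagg
Slc16a3: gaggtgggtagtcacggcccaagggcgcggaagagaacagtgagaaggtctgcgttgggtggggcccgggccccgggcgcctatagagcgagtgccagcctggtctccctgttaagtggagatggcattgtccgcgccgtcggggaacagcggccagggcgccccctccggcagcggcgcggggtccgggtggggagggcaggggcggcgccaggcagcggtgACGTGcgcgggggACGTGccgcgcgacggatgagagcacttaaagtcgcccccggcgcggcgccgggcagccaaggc
Ldha: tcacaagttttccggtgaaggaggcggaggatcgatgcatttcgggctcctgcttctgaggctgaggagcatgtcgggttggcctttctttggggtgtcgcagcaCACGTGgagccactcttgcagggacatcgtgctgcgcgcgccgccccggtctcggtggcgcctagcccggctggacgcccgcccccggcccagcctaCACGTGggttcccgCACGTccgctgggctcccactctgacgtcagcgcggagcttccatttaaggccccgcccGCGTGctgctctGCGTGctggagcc
Pgk1: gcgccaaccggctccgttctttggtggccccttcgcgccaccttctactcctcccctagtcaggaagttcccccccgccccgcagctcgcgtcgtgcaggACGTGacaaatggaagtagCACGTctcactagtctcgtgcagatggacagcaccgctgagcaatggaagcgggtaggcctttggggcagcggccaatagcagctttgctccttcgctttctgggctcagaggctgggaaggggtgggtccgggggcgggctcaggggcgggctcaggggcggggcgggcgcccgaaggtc
Bnip3: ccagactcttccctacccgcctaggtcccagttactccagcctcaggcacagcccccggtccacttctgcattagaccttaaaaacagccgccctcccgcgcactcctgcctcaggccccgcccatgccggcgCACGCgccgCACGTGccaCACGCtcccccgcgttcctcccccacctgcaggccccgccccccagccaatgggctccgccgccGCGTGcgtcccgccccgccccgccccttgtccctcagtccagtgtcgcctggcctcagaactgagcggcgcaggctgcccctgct
Ankrd37: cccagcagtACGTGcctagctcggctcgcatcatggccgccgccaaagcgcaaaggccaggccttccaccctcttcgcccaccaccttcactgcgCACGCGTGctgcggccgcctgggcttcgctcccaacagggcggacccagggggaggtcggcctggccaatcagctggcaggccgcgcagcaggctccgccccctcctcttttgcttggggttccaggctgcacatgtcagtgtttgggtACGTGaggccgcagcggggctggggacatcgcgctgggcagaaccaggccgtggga
Hk2: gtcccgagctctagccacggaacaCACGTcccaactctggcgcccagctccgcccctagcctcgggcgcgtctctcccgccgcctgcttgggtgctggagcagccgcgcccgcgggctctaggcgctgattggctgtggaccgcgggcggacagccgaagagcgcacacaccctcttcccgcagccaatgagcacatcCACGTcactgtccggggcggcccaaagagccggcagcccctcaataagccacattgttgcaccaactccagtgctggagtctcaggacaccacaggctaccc
Tpi1: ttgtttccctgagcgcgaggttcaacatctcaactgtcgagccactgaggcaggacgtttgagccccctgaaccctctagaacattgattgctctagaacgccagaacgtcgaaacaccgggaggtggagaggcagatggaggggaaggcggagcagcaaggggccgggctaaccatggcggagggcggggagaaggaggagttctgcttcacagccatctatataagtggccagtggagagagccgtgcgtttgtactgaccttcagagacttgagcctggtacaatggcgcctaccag
The Ldha window held 5 matches of ACGTG, 4 of them inside 2 CACGTG motifs, and 2 of GCGTG. The Bnip3 window held 2 of ACGTG and 3 of GCGTG, and Ankrd37 2 of each. Slc16a3, Pgk1 and Hk2 held 2 of ACGTG each and Egln3 held 1.

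Library totals were 19370097 to 26726690 reads, and 1 read of a gene of 2 kb was worth 0.0187 to 0.0258 FPKM. The level of Mga was 8.03, 19.6 and 11.2 FPKM in the 3 Mga knockout libraries as labelled, against 19.7, 18.6 and 17.1 in wild type. The library labelled Mga knockout replicate 2, at 19.6, thus lay within the wild type range. The members' Mga fold changes, counts and sums below are therefore given with and without it. How the knockouts were made is not told, so this RNA level alone does not settle the library's genotype. Over the genes tested below its levels correlated at 0.916 and 0.941 with Mga libraries 1 and 3. With wild type they did so at 0.914 to 0.915, where wild type libraries reached 0.982 to 0.983 among themselves. With both Pcgf6 libraries the value was 0.923, above that with Mga library 1, and with the L3mbtl2 libraries it was 0.895 and 0.894. L3mbtl2 stood at 3.72 and 3.49 FPKM in L3mbtl2 knockout against 19.8, 20.5 and 20.3 in wild type, and Pcgf6 at 9.56 and 9.82 in Pcgf6 knockout against 29.4, 29.7 and 27.6 in wild type. Between the 3 Mga libraries 64.4 to 74.9% of genes differed beyond counting noise at the 5% point of a chi-square test, against 17.7 to 29.9% between the libraries of each other group, all above the 5% that counting alone gives. All 10 embryonic stem cell markers were listed, with summed levels of 3455 to 3668 FPKM in Mga, 3774 to 3846 in L3mbtl2 and 4152 to 4277 in Pcgf6 knockout against 2472 to 2674 in wild type. Markers of other cells moved too. The sum of 9 trophoblast markers was 68.1 to 190.0, 33.4 to 34.6 and 86.5 to 87.9 FPKM in the 3 knockouts against 389 to 402 in wild type, and that of 8 macrophage markers was 8.69 to 31.7, 383 to 398 and 193 to 194 against 142 to 148. The sum of 8 fibroblast (feeder cell) markers was 489 in Mga library 1 and 98.5 to 167 in every other library. Sums of 7 primed epiblast markers were 73.2 to 99.7 FPKM in the knockouts and 95.7 to 99.1 in wild type, of 7 primitive endoderm markers 6.64 to 14.1 and 4.16 to 5.34, and of 6 listed endothelial and erythroid markers 12.9 to 38.5 and 27.2 to 28.8. The primed sum hides moves both ways. Of 6 primed markers tested, 2 rose and 3 fell in Mga knockout, with or without library 2. In L3mbtl2 knockout 1 rose and 4 fell, and in Pcgf6 knockout 1 rose and 1 fell. Of all genes 22.8% rose and 16.7% fell in Mga (32.7% and 22.7% without library 2). The shares were 23.4% and 16.7% in L3mbtl2 and 5.45% and 4.62% in Pcgf6 knockout. No listed marker was at 0 in all libraries, and the part of these cells in the results below was not tested. In bulk RNA, fewer cells of a type and less RNA per cell cannot be told apart.

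All 33 members passed the filter on low values, at least 0.5 FPKM in at least 2 libraries. Most of them were lower in L3mbtl2 knockout. In L3mbtl2 knockout 21 members fell and 6 rose relative to wild type, among them falls of the oxygen sensor Egln3, the lactate exporter Slc16a3 and lactate dehydrogenase Ldha. Of all 15731 genes tested with limma, 16.7% were called lower and 23.4% higher in that comparison at an adjusted p under 0.05. The median log2 fold change of the members was -0.73, against 0.13 for all genes tested. Every L3mbtl2 library lay below every wild type library at 25 members, where 32.8% of all genes do so, and above at 8, where 46.7% do so. Scaled by median-of-ratios size factors, which lower the median of all genes by 0.11, the counts were 21 falls and 1 rise, that of Pfkp. The number of all genes called moved with the library left out as well, as given further below. Among the members, none of the 6 rises held when each of the 10 libraries was left out in turn, while 13 of the 21 falls did. Without L3mbtl2 library 1 the counts were 14 falls and 0 rises, and without L3mbtl2 library 2 they were 14 falls and 1 rise.

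In Mga knockout 7 members rose and 4 fell, against 22.8% of all genes called higher and 16.7% called lower. The median was -0.14 for the members and 0.10 for all genes. Without the library labelled Mga knockout replicate 2, still 7 members rose and 15 fell, where 32.7% and 22.7% of all genes did so, and the median of the members was -0.26. That library stood highest of the 3 Mga libraries at 25 of 33 members, 75.8%, while it did so at 31.3% of all genes tested. The members' median log2 level relative to the wild type mean was -0.35, 0.23 and -0.13 in Mga libraries 1, 2 and 3. Leaving out wild type library 1 or 2 took the count to 7 members, 5 up and 2 down, and under size factors, with a shift of the median of all genes by -0.10, it was 5 up and 5 down. Here too the number of all genes called moved with the library left out.

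In Pcgf6 knockout 4 members rose and 0 fell, where 5.45% of all genes were called higher and 4.62% lower. Both Pcgf6 libraries lay above all wild type libraries at 20 members and below at 11, while 36.2% and 29.2% of all genes did so. The median log2 fold change was 0.16 for the members and 0.04 for all genes. The 4 calls rest on 1 spread shared by the 4 groups. The number of all genes called moved with the settings that follow as well, as given further below. The member counts under them are therefore not a result about the members alone. With a spread estimated for each group 15 members were called higher and 5 lower, with only Pcgf6 knockout and wild type in the fit 18 and 7, and without either Pcgf6 library 0. Without any 1 wild type or L3mbtl2 library, 2 members were called, and without Mga library 1 they were 11, 8 higher and 3 lower.

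**Figure D1:**
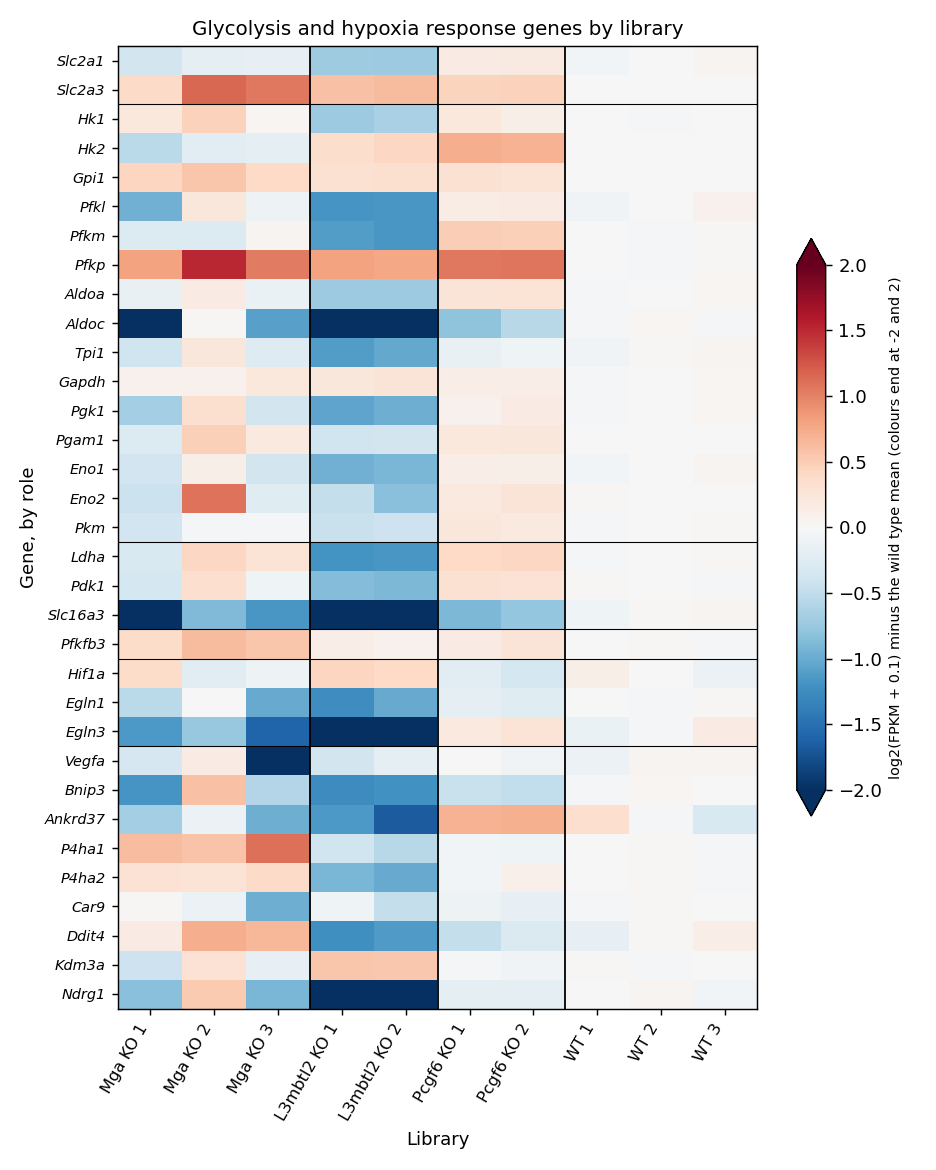
Level of each of the 33 members in each of the 10 libraries as log2(FPKM + 0.1) minus the mean of the 3 wild type libraries, with genes (down) grouped by role and libraries (across) in the order Mga, L3mbtl2 and Pcgf6 knockout and wild type. Blue is lower and red higher, with colours ending at -2 and 2. The L3mbtl2 columns are blue at most genes, with a median of -0.73 and -0.84 over the members, and Mga library 2 (median 0.23) is redder than Mga libraries 1 and 3.

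Glucose enters the cell through transporters of the GLUT family. Of the 2 on the list, Slc2a1 fell and Slc2a3 rose in both Mga and L3mbtl2 knockout, and neither passed in Pcgf6 knockout. Slc2a1, which encodes GLUT1, was at 125, 142 and 143 FPKM in the Mga knockout libraries, 97.6 and 97.3 in L3mbtl2 knockout, 180.2 and 181 in Pcgf6 knockout and 154, 160.4 and 165 in wild type. The Mga and L3mbtl2 libraries all lay below wild type and the Pcgf6 libraries all above it. Slc2a1 fell by 0.71 ± 0.08 on the log2 scale in L3mbtl2 knockout (limma SE, adjusted p = 0.000344) and fell by 0.23 ± 0.07 in Mga knockout (adjusted p = 0.0282), and its log2 fold change was 0.18 ± 0.08 in Pcgf6 knockout (adjusted p = 0.189). Slc2a3, which encodes the high-affinity transporter GLUT3, ranged over 164 to 278 FPKM in the Mga knockout libraries, 188 to 195 in L3mbtl2 knockout, 172 to 173 in Pcgf6 knockout and 125 to 126 in wild type. No knockout library of any group fell within the wild type range. It rose by 0.86 ± 0.17 in Mga knockout (adjusted p = 0.0052) and rose by 0.61 ± 0.19 in L3mbtl2 knockout (adjusted p = 0.0346), with 0.46 ± 0.19 in Pcgf6 knockout (adjusted p = 0.172). With Mga library 2 left out, the Mga values were -0.26 for Slc2a1 (adjusted p = 0.0115) and 0.72 for Slc2a3 (adjusted p = 0.00721). The Mga call of Slc2a1 and the L3mbtl2 call of Slc2a3 each held in 3 of the 10 fits that left out 1 library and were lost without any wild type, L3mbtl2 or Pcgf6 library, with adjusted p up to 0.0996 and 0.152. Size factors also ended the L3mbtl2 calls of Slc2a3 (adjusted p = 0.0883) and of Hk2 described next (0.0954). Slc2a3 lies on chromosome 6, where the median log2 fold change of all genes was 0.28 in Mga, 0.23 in L3mbtl2 and 0.12 in Pcgf6 knockout.

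Hexokinase traps glucose in the cell as glucose 6-phosphate, and its isozyme Hk2 passed in all 3 knockouts, lower in Mga and higher in the other two. Hk2 was at 29, 36.2 and 36.8 FPKM in the Mga knockout libraries, 53.5 and 55.9 in L3mbtl2 knockout, 69.9 and 68.1 in Pcgf6 knockout and 42, 42.1 and 42.2 in wild type. All Mga libraries lay below wild type, and all L3mbtl2 and Pcgf6 libraries above it, with the Pcgf6 libraries highest. Hk2 fell by 0.32 ± 0.09 in Mga knockout (limma adjusted p = 0.0261), rose by 0.38 ± 0.10 in L3mbtl2 knockout (adjusted p = 0.0197) and rose by 0.71 ± 0.10 in Pcgf6 knockout (adjusted p = 0.00548). Its Mga value was -0.36 without Mga library 2 (adjusted p = 0.0113). Hk2 also lies on chromosome 6. Less the chromosome median, its log2 fold changes were -0.6 in Mga, 0.15 in L3mbtl2 and 0.59 in Pcgf6 knockout. The Mga call was lost without any 1 wild type library (adjusted p up to 0.0764), the L3mbtl2 call without any 1 wild type or L3mbtl2 library (up to 0.124) and the Pcgf6 call without either Pcgf6 library (up to 0.0726). Hk1, the isozyme of most tissues, ranged over 13 to 17.6 FPKM in the Mga knockout libraries, 7.67 to 8.09 in L3mbtl2 knockout, 13.7 to 14.7 in Pcgf6 knockout and 12.5 to 12.8 in wild type. It fell by 0.68 ± 0.12 in L3mbtl2 knockout (adjusted p = 0.00309), a call that held without any 1 library, and had 0.24 ± 0.11 in Mga (0.12 without Mga library 2) and 0.16 ± 0.12 in Pcgf6 knockout.

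Glucose 6-phosphate isomerase, Gpi1, and the platelet-type phosphofructokinase Pfkp were the 2 members called higher in all 3 knockouts. Slc2a3, Gapdh and Pfkfb3 also lay above wild type in every knockout library but did not pass the threshold in all 3. Gpi1 was at 116, 126 and 113 FPKM in the Mga knockout libraries, 106 and 107 in L3mbtl2 knockout, 105 and 104 in Pcgf6 knockout and 85.6, 85.1 and 86.3 in wild type. Every knockout library lay above every wild type library. The rise was 0.46 ± 0.06 in Mga (limma adjusted p = 0.000666), 0.31 ± 0.07 in L3mbtl2 (adjusted p = 0.0065) and 0.29 ± 0.07 in Pcgf6 knockout (adjusted p = 0.0305). Pfkp was at 28.4, 46.4 and 33.5 FPKM in the Mga knockout libraries, 28.5 and 27.9 in L3mbtl2 knockout, 33.7 and 34.2 in Pcgf6 knockout and 16.2, 15.9 and 16.6 in wild type. Again no knockout library reached down to wild type, and the mean was 222% of the wild type mean in Mga, 173% in L3mbtl2 and 209% in Pcgf6 knockout. Pfkp rose by 1.12 ± 0.15, 0.79 ± 0.17 and 1.06 ± 0.17 in these knockouts (adjusted p = 0.000932, 0.00717 and 0.00806). Without Mga library 2 the Mga rises were 0.42 for Gpi1 and 0.92 for Pfkp (adjusted p = 0.000135 and 5.66e-05), and both held without any 1 library. The L3mbtl2 rise of Gpi1 was lost without either L3mbtl2 library (adjusted p up to 0.0589) and that of Pfkp without L3mbtl2 library 1 (0.0558). In Pcgf6 knockout Pfkp was lost without either Pcgf6 library (up to 0.0895) and Gpi1 without any wild type, L3mbtl2 or Pcgf6 library (up to 0.217). Scaling by size factors ended the L3mbtl2 and Pcgf6 calls of Gpi1 (adjusted p = 0.0958 and 0.114).

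The other phosphofructokinase isozymes, which with Pfkp form the enzyme of the committed step, fell in L3mbtl2 knockout. Pfkl, the liver type, was at 40.8, 92.4 and 74.2 FPKM in the Mga knockout libraries, 35.1 and 35.6 in L3mbtl2 knockout, 88.3 and 89.9 in Pcgf6 knockout and 75.7, 79.4 and 84 in wild type. Both L3mbtl2 libraries lay below every wild type library, Mga library 1 was close to them, and Mga library 2 lay above wild type. Pfkl fell by 1.17 ± 0.28 in L3mbtl2 knockout (limma adjusted p = 0.0105), and its Mga log2 fold change was -0.28 ± 0.25 (adjusted p = 0.391) and -0.53 without Mga library 2 (adjusted p = 0.0626). Pfkm, the muscle type, was at 17.7, 17.8 and 22.3 FPKM in the Mga knockout libraries, 9.84 and 9.48 in L3mbtl2 knockout, 30.3 and 30.1 in Pcgf6 knockout and 21.4, 21.2 and 21.9 in wild type. Its L3mbtl2 libraries were lowest and its Pcgf6 libraries highest, with neither group overlapping wild type. Pfkm fell by 1.15 ± 0.11 in L3mbtl2 knockout (adjusted p = 0.000176) and rose by 0.49 ± 0.11 in Pcgf6 knockout (adjusted p = 0.0251), against -0.17 ± 0.10 in Mga knockout (-0.12 without Mga library 2). The Pfkl fall was lost without either L3mbtl2 library (adjusted p up to 0.0661) and the Pcgf6 rise of Pfkm without any wild type, L3mbtl2 or Pcgf6 library (up to 0.174). Pfkfb3, which makes the fructose 2,6-bisphosphate that activates this step, ranged over 5.17 to 6.29 FPKM in the Mga knockout libraries, 4.24 to 4.39 in L3mbtl2 knockout, 4.49 to 4.83 in Pcgf6 knockout and 3.96 to 4.12 in wild type. It rose by 0.52 ± 0.10 in Mga knockout (adjusted p = 0.0054), with 0.46 without Mga library 2 (adjusted p = 0.00391), and had 0.10 ± 0.12 and 0.21 ± 0.12 in L3mbtl2 and Pcgf6 knockout.

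Aldolase and triose phosphate isomerase split the sugar and interconvert the resulting trioses, and both fell in L3mbtl2 knockout. Aldoa, the main aldolase here, was at 389, 482 and 394 FPKM in the Mga knockout libraries, 261 and 262 in L3mbtl2 knockout, 519 and 519.7 in Pcgf6 knockout and 422, 431 and 444 in wild type. The L3mbtl2 libraries stood apart below all others, and the Pcgf6 libraries stood above wild type. Aldoa fell by 0.73 ± 0.10 in L3mbtl2 knockout (limma adjusted p = 0.000846), with -0.04 ± 0.09 in Mga and 0.26 ± 0.10 in Pcgf6 knockout. Aldoc, the brain aldolase, was at 3.3, 16.2 and 7.5 FPKM in the Mga knockout libraries, 3.25 and 3.37 in L3mbtl2 knockout, 9.08 and 10.8 in Pcgf6 knockout and 15.7, 16.4 and 15.7 in wild type. Mga library 2 lay within the wild type range while Mga libraries 1 and 3 lay below it, as did the L3mbtl2 and Pcgf6 libraries. Aldoc fell by 2.24 ± 0.51 in L3mbtl2 knockout (adjusted p = 0.00873), a call lost without either L3mbtl2 library (up to 0.0594). Its Mga value was -1.10 ± 0.45 (adjusted p = 0.084) and -1.66 without Mga library 2 (adjusted p = 0.002). Aldoc lies on chromosome 11, where the median of all genes was -0.23 in Mga and -0.31 in Pcgf6 knockout. Tpi1, triose phosphate isomerase, was at 134, 208 and 148 FPKM in the Mga knockout libraries, 82 and 86.6 in L3mbtl2 knockout, 159.7 and 168 in Pcgf6 knockout and 169, 179.7 and 184 in wild type. The L3mbtl2 libraries were lowest, and Mga library 2 was the only library above wild type. Tpi1 fell by 1.07 ± 0.16 in L3mbtl2 knockout (adjusted p = 0.00139), against a chromosome 6 median of 0.23, and had -0.14 ± 0.14 and -0.11 ± 0.16 in the other knockouts. Without Mga library 2, Aldoa and Tpi1 were lower in Mga knockout, at -0.14 and -0.33 (adjusted p = 0.0253 and 0.00368).

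**Figure D2:**
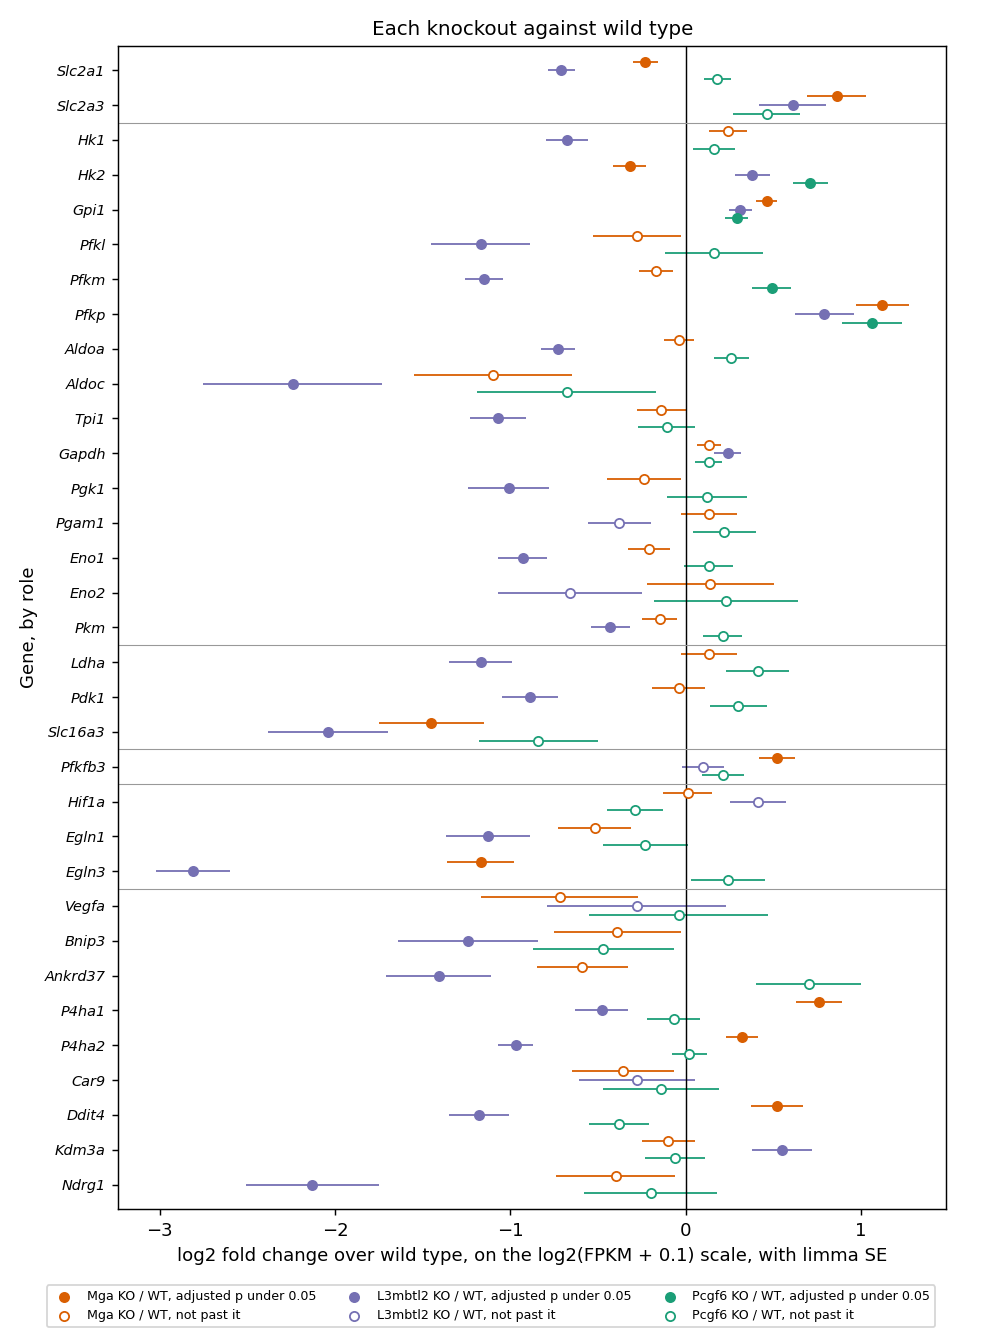
Log2 fold change of each member over wild type (x axis, on the log2(FPKM + 0.1) scale, with limma SE as bars) in Mga, L3mbtl2 and Pcgf6 knockout, genes down the page by role. Filled points passed an adjusted p under 0.05. L3mbtl2 points lie left of 0 at 25 of 33 members and reach -2.81 at Egln3, while Pfkp and Gpi1 are filled and right of 0 in all 3 knockouts.

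In the payoff phase, which yields ATP and NADH, the steps did not move alike in L3mbtl2 knockout. Gapdh, glyceraldehyde 3-phosphate dehydrogenase and often a reference gene, was at 1513, 1512 and 1648 FPKM in the Mga knockout libraries, 1674 and 1693 in L3mbtl2 knockout, 1563 and 1564 in Pcgf6 knockout and 1389, 1429 and 1464 in wild type. All knockout libraries lay above all wild type libraries by a small margin. Gapdh lies on chromosome 6, where all genes had a median of 0.28 in Mga, 0.23 in L3mbtl2 and 0.12 in Pcgf6 knockout. Less that median, Gapdh was at -0.16, 0.01 and 0.01, so its rises did not exceed those of its chromosome. Gapdh rose by 0.24 ± 0.08 in L3mbtl2 knockout (limma adjusted p = 0.0371), with 0.13 ± 0.07 in Mga (0.15 without Mga library 2) and 0.13 ± 0.08 in Pcgf6 knockout. That L3mbtl2 rise held in 3 of 10 fits that left out 1 library, was lost without any wild type, L3mbtl2 or Pcgf6 library (adjusted p up to 0.174) and was lost under size factors (adjusted p = 0.279). Pgk1, phosphoglycerate kinase, makes the first ATP of this phase and was at 176, 352 and 219 FPKM in the Mga knockout libraries, 136 and 144 in L3mbtl2 knockout, 298 and 315 in Pcgf6 knockout and 274, 283 and 289 in wild type. The L3mbtl2 libraries and Mga libraries 1 and 3 lay below wild type, and Mga library 2 and both Pcgf6 libraries above it. Pgk1 fell by 1.01 ± 0.23 in L3mbtl2 knockout (adjusted p = 0.00955), a call lost without either L3mbtl2 library (up to 0.0681). Its Mga value was -0.24 ± 0.21 (adjusted p = 0.387) and -0.52 without Mga library 2 (adjusted p = 0.00198). Pgam1, phosphoglycerate mutase, ranged over 507 to 846 FPKM in the Mga knockout libraries, 462 to 476 in L3mbtl2 knockout, 709 to 716 in Pcgf6 knockout and 608 to 614 in wild type. It passed in no comparison with wild type, with 0.13 ± 0.16 in Mga (-0.04 without Mga library 2), -0.38 ± 0.18 in L3mbtl2 and 0.22 ± 0.18 in Pcgf6 knockout.

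Enolase and pyruvate kinase close the pathway. Eno1, the main enolase here, ranged over 377 to 533 FPKM in the Mga knockout libraries, 254 to 263 in L3mbtl2 knockout, 535 to 546 in Pcgf6 knockout and 475 to 515 in wild type. It fell by 0.93 ± 0.14 in L3mbtl2 knockout (limma adjusted p = 0.00137), with no overlap between L3mbtl2 and wild type libraries, and the call held without any 1 library. Its Mga value was -0.21 ± 0.12 (adjusted p = 0.204) and -0.38 without Mga library 2 (adjusted p = 0.000622). Eno2, the neuronal enolase, stayed low at 0.78 to 2.41 FPKM in the Mga knockout libraries, 0.563 to 0.752 in L3mbtl2 knockout, 1.26 to 1.32 in Pcgf6 knockout and 1.08 to 1.1 in wild type and passed in no comparison with wild type, with Mga values of 0.14 with and -0.34 without Mga library 2. Pkm, pyruvate kinase and the member with the highest level in wild type, was at 1321, 1704 and 1673 FPKM in the Mga knockout libraries, 1263 and 1295 in L3mbtl2 knockout, 1999.7 and 1985 in Pcgf6 knockout and 1686, 1732 and 1750.1 in wild type. The L3mbtl2 libraries and Mga libraries 1 and 3 lay below the wild type libraries, Mga library 2 was within their range, and the Pcgf6 libraries lay above. Pkm fell by 0.43 ± 0.11 in L3mbtl2 knockout (adjusted p = 0.0173), with -0.15 ± 0.10 in Mga (-0.21 without Mga library 2) and 0.21 ± 0.11 in Pcgf6 knockout. That fall was lost without either L3mbtl2 library or wild type library 2 or 3 (adjusted p up to 0.106). Gapdh, Pgk1, Tpi1, Eno1, Aldoa, Ldha and Pkm have processed copies elsewhere in the mouse genome, and the sources used here do not tell how reads that match more than 1 place were counted, so their levels are uncertain to that extent.

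**Figure D3:**
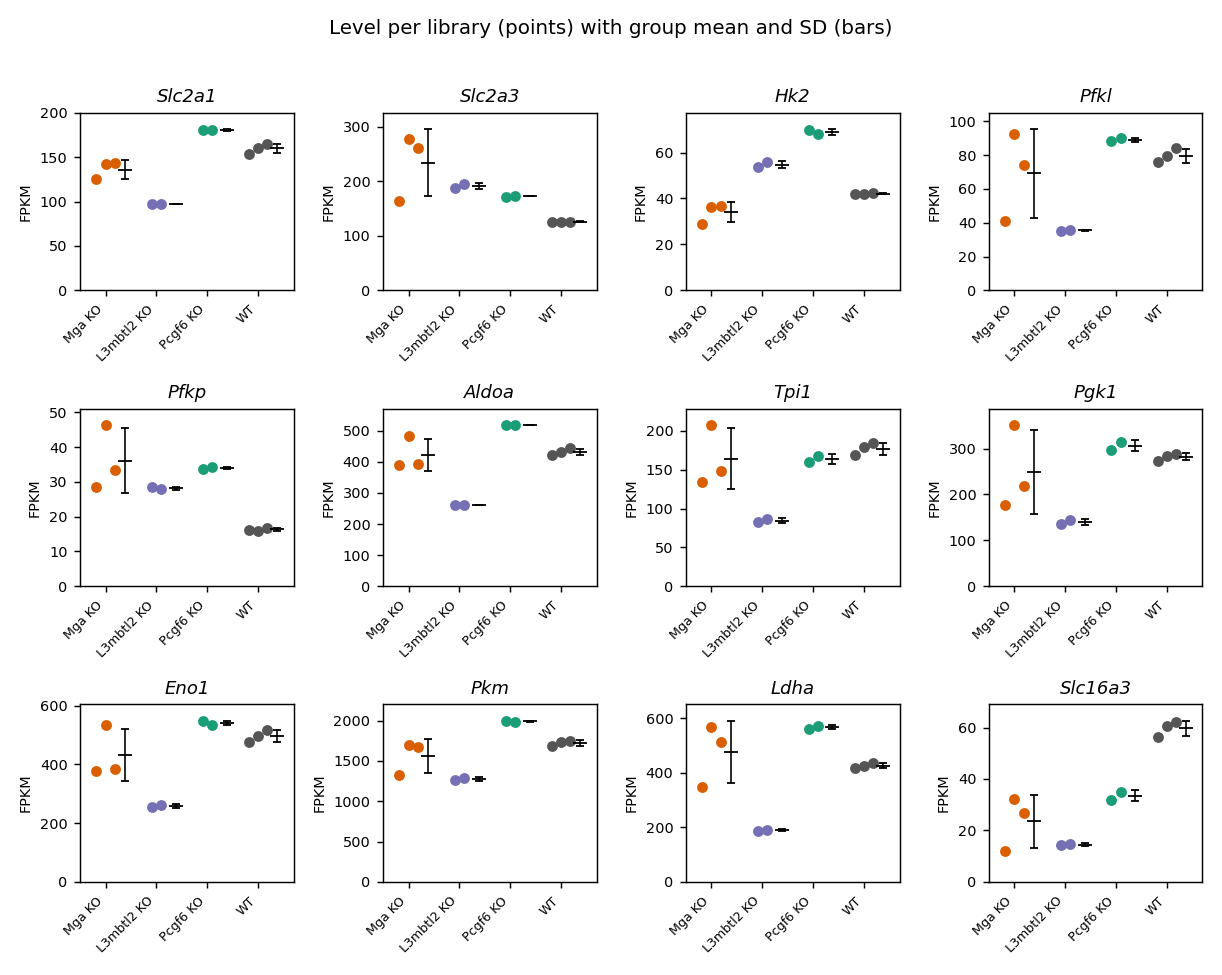
FPKM of 12 members in each library (points, linear axes from 0), with group mean and SD beside them, in the order Mga knockout (n = 3), L3mbtl2 knockout (n = 2), Pcgf6 knockout (n = 2) and wild type (n = 3). Ldha sits at 187 and 191 FPKM in L3mbtl2 knockout against 417 to 435 in wild type, while Slc2a3 and Pfkp sit above wild type in every knockout library.

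RNA of the 3 members at the fate of pyruvate, Ldha, Pdk1 and Slc16a3, fell in L3mbtl2 knockout, where 16.7% of all genes fell. Ldha, the lactate dehydrogenase subunit that favours lactate formation, was at 347, 568 and 514 FPKM in the Mga knockout libraries, 187 and 191 in L3mbtl2 knockout, 561 and 571 in Pcgf6 knockout and 417, 426 and 435 in wild type. The L3mbtl2 mean was 44.4% of the wild type mean, the Pcgf6 libraries lay above every wild type library, and Mga library 1 lay below wild type while Mga libraries 2 and 3 lay above. Ldha fell by 1.17 ± 0.18 in L3mbtl2 knockout (limma adjusted p = 0.00141), and had 0.13 ± 0.16 in Mga and 0.41 ± 0.18 in Pcgf6 knockout (adjusted p = 0.539 and 0.18). Pdk1, the kinase that shuts pyruvate dehydrogenase, was at 16.9, 27.1 and 20.4 FPKM in the Mga knockout libraries, 11.8 and 11.5 in L3mbtl2 knockout, 26.7 and 26.4 in Pcgf6 knockout and 22, 21.6 and 21.2 in wild type. Its L3mbtl2 libraries lay lowest and its Pcgf6 libraries above wild type, and it fell by 0.89 ± 0.16 in L3mbtl2 knockout (adjusted p = 0.00369), with -0.04 ± 0.15 and 0.30 ± 0.16 in Mga and Pcgf6 knockout. Slc16a3, which encodes the lactate exporter MCT4, was at 12.1, 32.1 and 26.6 FPKM in the Mga knockout libraries, 14.2 and 14.8 in L3mbtl2 knockout, 31.9 and 34.9 in Pcgf6 knockout and 56.3, 60.7 and 62.2 in wild type. No knockout library of any group reached the wild type range. Slc16a3 fell by 2.04 ± 0.34 in L3mbtl2 knockout (adjusted p = 0.00215) and fell by 1.45 ± 0.30 in Mga knockout (adjusted p = 0.00614), with -0.84 ± 0.34 in Pcgf6 knockout (adjusted p = 0.155). When Mga library 2 was left out, the Mga values were -1.73 for Slc16a3 (adjusted p = 0.00136), -0.01 for Ldha and -0.22 for Pdk1. The calls of Ldha, Pdk1 and Slc16a3 in L3mbtl2 knockout and of Slc16a3 in Mga knockout held without any 1 library. Slc16a3 lies on chromosome 11, where the median of all genes was -0.23 in Mga, 0.13 in L3mbtl2 and -0.31 in Pcgf6 knockout.

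Summed per library, the 15 glycolytic enzymes made 5376 ± 667 FPKM in Mga, 4422 ± 63.1 in L3mbtl2 and 6151 ± 6.48 in Pcgf6 knockout, against 5423 ± 124 in wild type (SD, n = 3, 2, 2 and 3), which is 99.1%, 81.5% and 113% of wild type. The Mga mean without library 2 was 5068 FPKM, 93.5% of wild type. Gapdh and Pkm hold much of that sum. Without them L3mbtl2 knockout was at 64.2% of wild type, Mga knockout at 99.1% (87.6% without Mga library 2) and Pcgf6 knockout at 114%. The sum of Ldha, Pdk1 and Slc16a3 was 42.4% of wild type in L3mbtl2 knockout, 123% in Pcgf6 knockout and 103% in Mga knockout, or 92.3% without Mga library 2. The 2 transporters together made 371 ± 72.0 FPKM in Mga (346 without Mga library 2), 289 ± 4.83 in L3mbtl2 and 353 ± 1.53 in Pcgf6 knockout, against 286 ± 4.96 in wild type. The summed transporter level of L3mbtl2 knockout was thus 101% of wild type while its make-up differed.

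Isozymes of a step took different shares in the knockouts, with no test applied to the shares. Each share is of the summed members of that step, and isozymes outside the list, such as Hk3 and Egln2, are left out. Slc2a3 made 56.8, 66.3 and 64.6% of the transporter sum in the Mga libraries, 65.8 and 66.7% in the L3mbtl2 and 48.8 and 48.8% in the Pcgf6 libraries, against 45, 43.8 and 43.1% in wild type. Every knockout library lay above every wild type library. Pfkp made 32.7, 29.6 and 25.8% of phosphofructokinase in the Mga libraries, 38.8 and 38.2% in the L3mbtl2 and 22.1 and 22.2% in the Pcgf6 libraries, against 14.3, 13.7 and 13.6% in wild type. The shares of wild type were again lowest and those of L3mbtl2 knockout highest, and Pfkl held 47.8 to 48.8% in L3mbtl2 knockout, against 66.8 to 68.5% in wild type. The phosphofructokinase shares rest on the authors' gene lengths, which for Pfkl, Pfkm and Pfkp differ by over 2% from those of GENCODE M21. Hk2 made 66.3 to 73.9% of the Hk1 and Hk2 sum in Mga, 87.3 to 87.5% in L3mbtl2 and 82.6 to 83.3% in Pcgf6 knockout. In wild type it made 76.7 to 77.1%. Egln3 made 47.6 to 50.3%, 28.7 to 35.3% and 67.1 to 69.0% of the Egln1 and Egln3 sum in the 3 knockouts, against 58.3 to 62.7% in wild type. P4ha1 made 80.5 to 84.6%, 82.4 to 83.0% and 74.8 to 77.1% of its pair, against 77.0 to 77.3% in wild type. Aldoa and Eno1 made at least 96.3% and 99.5% of their pairs in every library.

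**Figure D4:**
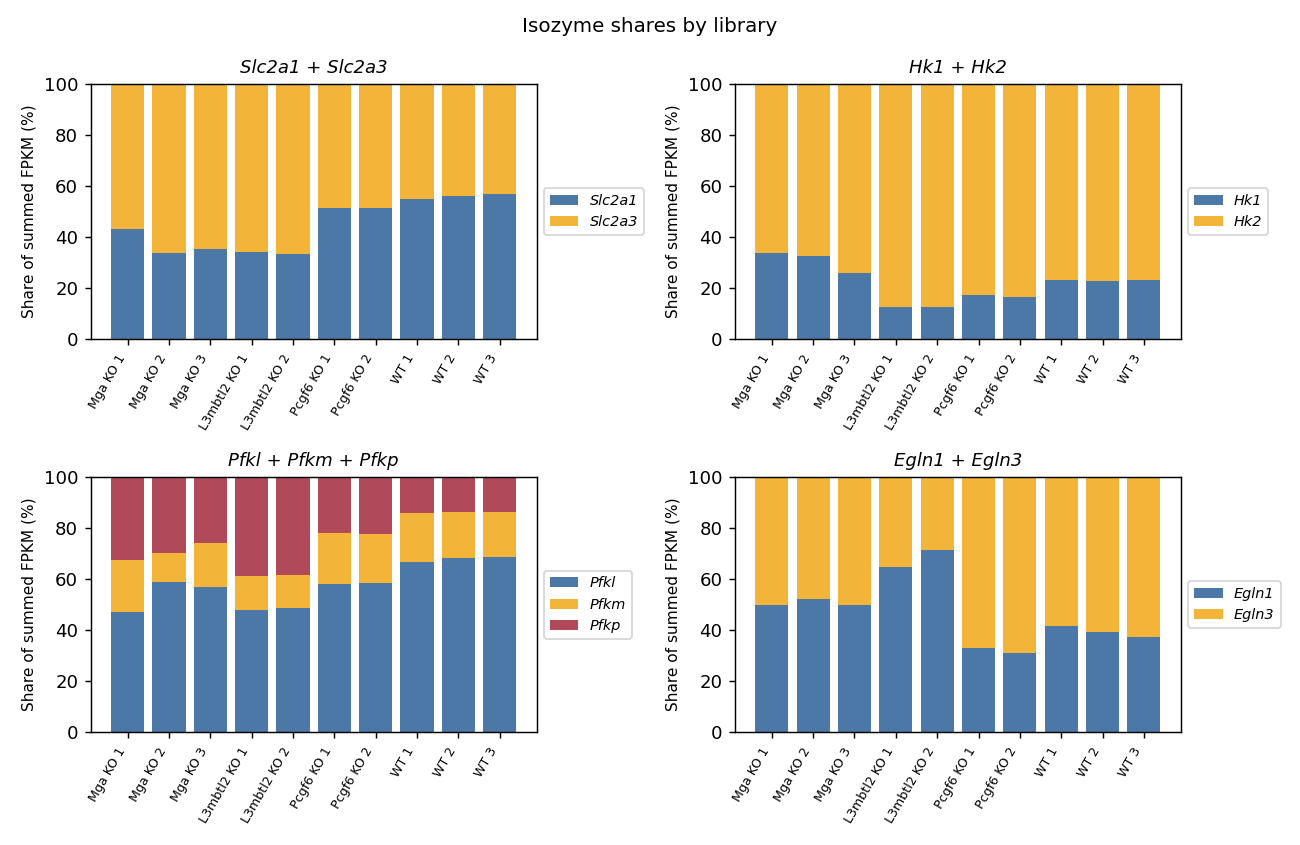
Share of each isozyme in the summed FPKM of the listed members of its step (stacked bars, %, 1 bar per library), with Mga, L3mbtl2 and Pcgf6 knockout left of wild type. The steps are glucose transporters, hexokinase, phosphofructokinase and HIF prolyl hydroxylases, and isozymes outside the list are not in the sums. The Pfkp share is 22.1 to 38.8% in the knockouts and 13.6 to 14.3% in wild type.

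Of the oxygen-sensing members, Hif1a, the alpha subunit of HIF-1, was at 26.7, 17.9 and 19.4 FPKM in the Mga knockout libraries, 28 and 27.6 in L3mbtl2 knockout, 17.8 and 16.3 in Pcgf6 knockout and 22.7, 20.8 and 19.1 in wild type. The L3mbtl2 libraries lay above every wild type library and the Pcgf6 libraries below, and Mga libraries lay on both sides. Hif1a passed in no comparison with wild type, with log2 fold changes of 0.01 ± 0.14, 0.41 ± 0.16 and -0.29 ± 0.16 in Mga, L3mbtl2 and Pcgf6 knockout (limma adjusted p = 0.949, 0.0691 and 0.303), and 0.13 in Mga knockout without library 2. Egln1, the main prolyl hydroxylase PHD2 that marks HIF for destruction, was at 9.9, 14.4 and 7.13 FPKM in the Mga knockout libraries, 6.03 and 7.09 in L3mbtl2 knockout, 12.5 and 12.1 in Pcgf6 knockout and 14.5, 14.1 and 14.7 in wild type. Both L3mbtl2 libraries and both Pcgf6 libraries lay below every wild type library, and Mga library 2 lay within the wild type range. Egln1 fell by 1.13 ± 0.24 in L3mbtl2 knockout (adjusted p = 0.00646), and its Mga value was -0.52 ± 0.21 (adjusted p = 0.0839) and -0.77 without Mga library 2 (adjusted p = 0.00222). Egln3, PHD3, which is itself a HIF target, was at 9.92, 13 and 7.22 FPKM in the Mga knockout libraries, 3.29 and 2.85 in L3mbtl2 knockout, 25.5 and 26.9 in Pcgf6 knockout and 20.2, 21.7 and 24.8 in wild type. The L3mbtl2 libraries were lowest, the Mga libraries lay between them and wild type, and the Pcgf6 libraries were above all wild type libraries. Egln3 fell by 2.81 ± 0.21 in L3mbtl2 knockout (adjusted p = 6.83e-05), the largest change among the 33 members in any comparison with wild type, to 13.8% of the wild type mean. In Mga knockout it fell by 1.17 ± 0.19 (adjusted p = 0.00209), with -1.38 without Mga library 2 (adjusted p = 0.000208), and in Pcgf6 knockout it had 0.24 ± 0.21 (adjusted p = 0.537). Both calls of Egln3 held without any 1 library, while the Egln1 fall was lost without L3mbtl2 library 1 (adjusted p = 0.061). Egln3 and Hif1a lie on chromosome 12, where the median of all genes was 0.27 in Mga and 0.19 in L3mbtl2 knockout.

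Among the 9 other HIF targets, 6 fell and 1 rose in L3mbtl2 knockout, 3 rose and 0 fell in Mga knockout (3 and 5 without Mga library 2), and none passed in Pcgf6 knockout. Of all genes 23.4% rose and 16.7% fell in L3mbtl2, 22.8% and 16.7% in Mga (32.7% and 22.7% without Mga library 2) and 5.45% and 4.62% in Pcgf6 knockout. Ndrg1, a stress-response gene and a marker of hypoxia, was at 2.61, 6.88 and 2.48 FPKM in the Mga knockout libraries, 0.926 and 1.09 in L3mbtl2 knockout, 4.11 and 4.1 in Pcgf6 knockout and 4.76, 4.93 and 4.53 in wild type. Both L3mbtl2 libraries lay below every other library, Mga libraries 1 and 3 lay below wild type and Mga library 2 above it. It fell by 2.13 ± 0.38 in L3mbtl2 knockout (limma adjusted p = 0.0029), and its Mga value was -0.40 ± 0.34 (adjusted p = 0.367) and -0.87 without Mga library 2 (adjusted p = 0.000327). Bnip3, which takes part in mitophagy, was at 20.3, 68.9 and 30.8 FPKM in the Mga knockout libraries, 19.2 and 19.8 in L3mbtl2 knockout, 33.7 and 32.8 in Pcgf6 knockout and 44.8, 47.2 and 46.1 in wild type. Its pattern over libraries was like that of Ndrg1, with Mga library 2 highest of all. Bnip3 fell by 1.24 ± 0.40 in L3mbtl2 knockout (adjusted p = 0.0364), a call that held in 2 of 10 fits that left out 1 library and was kept only without Mga library 1 or 2 (adjusted p up to 0.148). In Mga knockout it had -0.39 ± 0.36 (adjusted p = 0.41) and -0.88 without Mga library 2 (adjusted p = 0.0019). Ankrd37, an ankyrin repeat gene and direct HIF-1 target in human cells, was low at 1.32, 2.0 and 1.07 FPKM in the Mga knockout libraries, 0.93 and 0.619 in L3mbtl2 knockout, 3.59 and 3.64 in Pcgf6 knockout and 2.8, 2.13 and 1.74 in wild type. The L3mbtl2 libraries were lowest, and Mga library 2 lay within the wild type range. Ankrd37 fell by 1.41 ± 0.30 in L3mbtl2 knockout (adjusted p = 0.00641), a call lost without L3mbtl2 library 2 (0.064), and had 0.70 ± 0.30 in Pcgf6 knockout (adjusted p = 0.174), where both libraries lay above wild type. Its Mga value was -0.59 ± 0.26 (adjusted p = 0.107) and -0.83 without Mga library 2 (adjusted p = 0.0182).

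Of these targets 3 rose in Mga knockout and fell in L3mbtl2 knockout. Ddit4, which encodes REDD1, an inhibitor of mTORC1 signalling, was at 45.5, 67 and 64.2 FPKM in the Mga knockout libraries, 17.3 and 18.4 in L3mbtl2 knockout, 29.3 and 33 in Pcgf6 knockout and 36, 41.3 and 44.5 in wild type. All Mga libraries lay above and all L3mbtl2 and Pcgf6 libraries below every wild type library. Ddit4 rose by 0.52 ± 0.15 in Mga knockout (limma adjusted p = 0.0246) and fell by 1.18 ± 0.17 in L3mbtl2 knockout (adjusted p = 0.00109), with -0.38 ± 0.17 in Pcgf6 knockout (adjusted p = 0.189). P4ha1, a collagen prolyl 4-hydroxylase subunit, ranged over 26.3 to 38 FPKM in the Mga knockout libraries, 12 to 13.4 in L3mbtl2 knockout, 16.7 to 17.1 in Pcgf6 knockout and 17.5 to 18 in wild type, and its isozyme P4ha2 over 6.37 to 6.93 FPKM in the Mga knockout libraries, 2.55 to 2.73 in L3mbtl2 knockout, 5.08 to 5.63 in Pcgf6 knockout and 5.12 to 5.37 in wild type. In neither gene did the Mga or the L3mbtl2 libraries overlap wild type. P4ha1 rose by 0.76 ± 0.13 in Mga (adjusted p = 0.00284) and fell by 0.48 ± 0.15 in L3mbtl2 knockout (adjusted p = 0.0305), and P4ha2 rose by 0.32 ± 0.09 and fell by 0.97 ± 0.10 (adjusted p = 0.0254 and 0.000329). The Mga values without library 2 were 0.42, 0.86 and 0.34 for Ddit4, P4ha1 and P4ha2 (adjusted p = 0.0478, 0.00101 and 0.0108). The Mga rise of Ddit4 was lost without wild type library 1 or 2 or Mga library 3 (adjusted p up to 0.089) and under size factors (0.0667), and that of P4ha2 without any 1 wild type library (up to 0.0889) and under size factors (0.08). The L3mbtl2 fall of P4ha1 was lost without any 1 wild type or L3mbtl2 library (up to 0.182), while those of Ddit4 and P4ha2 and the Mga rise of P4ha1 held without any 1 library. P4ha2 lies on chromosome 11, where the median of all genes was -0.23 in Mga knockout.

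Kdm3a, a histone H3 lysine 9 demethylase, ranged over 11.7 to 19.1 FPKM in the Mga knockout libraries, 22.6 to 22.9 in L3mbtl2 knockout, 14.8 to 15.1 in Pcgf6 knockout and 15.3 to 15.7 in wild type. It rose by 0.55 ± 0.17 in L3mbtl2 knockout (limma adjusted p = 0.0328), where both libraries lay above every wild type library. That rise was lost without any wild type, L3mbtl2 or Pcgf6 library (adjusted p up to 0.143) and under size factors (0.106), and the median of all genes on its chromosome 6 was 0.23. Without Mga library 2 it was lower in Mga knockout, at -0.29 (adjusted p = 0.0132). Vegfa, the main angiogenic growth factor, was at 9.93, 14.1 and 3.06 FPKM in the Mga knockout libraries, 9.66 and 11 in L3mbtl2 knockout, 12.4 and 11.9 in Pcgf6 knockout and 11.6, 13.1 and 12.9 in wild type. Mga library 3 stood far below the other 9, and the L3mbtl2 libraries lay below wild type. Vegfa passed in no comparison with wild type, with -0.72 ± 0.45, -0.28 ± 0.51 and -0.04 ± 0.51 in the 3 knockouts, though without Mga library 2 its Mga value was -1.16 (adjusted p = 0.0391). Car9, a carbonic anhydrase and a classical hypoxia marker, was near the filter at 0.289 to 0.682 FPKM in the Mga knockout libraries, 0.452 to 0.621 in L3mbtl2 knockout, 0.583 to 0.617 in Pcgf6 knockout and 0.654 to 0.682 in wild type and passed in none, with -0.36 ± 0.29 in Mga (-0.48 without Mga library 2), -0.28 ± 0.33 in L3mbtl2 and -0.14 ± 0.33 in Pcgf6 knockout. Summed, the 9 targets made 126, 211 and 161 FPKM in the Mga libraries, a mean of 114% of wild type and of 98.5% without Mga library 2, and were at 60.6% in L3mbtl2 and 84.0% in Pcgf6 knockout.

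**Figure D5:**
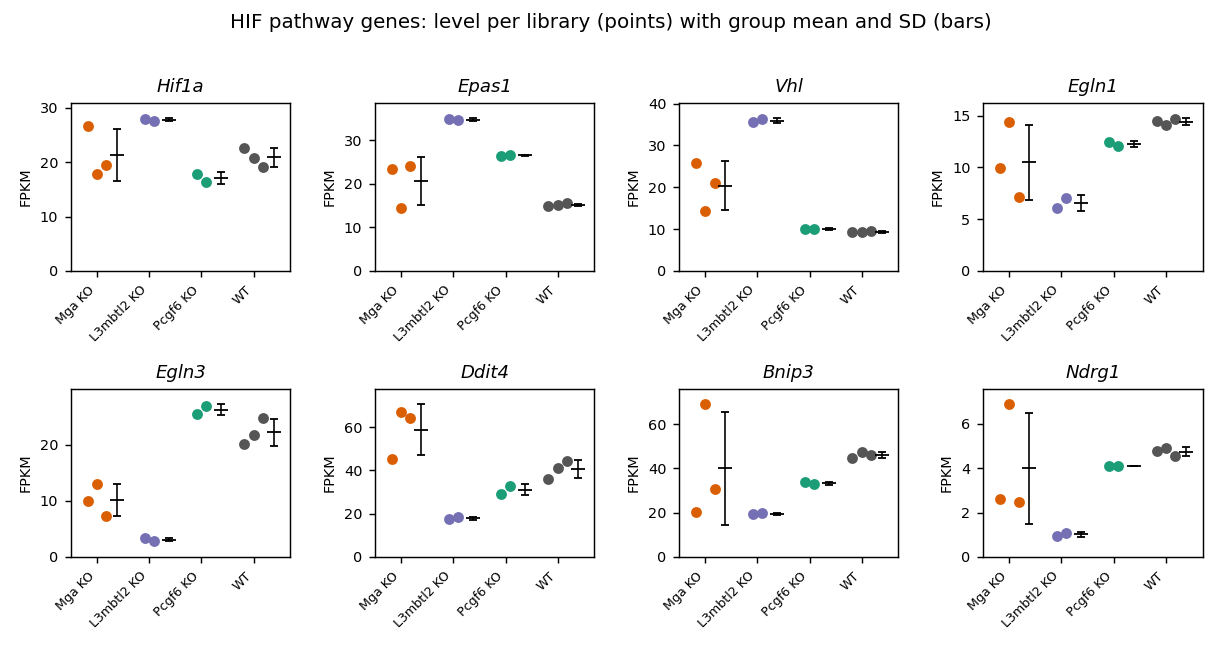
FPKM of 8 genes of the HIF pathway in each library (points, linear axes from 0), with group mean and SD beside them, for Mga (n = 3), L3mbtl2 (n = 2) and Pcgf6 knockout (n = 2) and wild type (n = 3). Epas1 and Vhl are not among the 33 members and stand above wild type in L3mbtl2 knockout, while Egln1, Egln3, Ddit4, Bnip3 and Ndrg1 stand below it there.

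Set against each other, L3mbtl2 knockout differed from Mga and from Pcgf6 knockout at many members. With all 10 libraries, 6.06% of the members were called higher and 15.2% lower in Mga than in Pcgf6 knockout. The shares of all genes were 12% and 10.6%, so the count for that pair does not set the members apart from all genes. In Mga knockout 16 members were higher and 2 lower than in L3mbtl2 knockout, where 10.9% and 12% of all genes were called. The 16 included Ddit4 (1.70 ± 0.17, limma adjusted p = 0.00033), Egln3 (1.64 ± 0.21, adjusted p = 0.00119), Ldha (1.30 ± 0.18, adjusted p = 0.00143) and P4ha2 (1.29 ± 0.10, adjusted p = 0.000125), and the 2 lower were Hk2 (-0.69 ± 0.10) and Kdm3a (-0.64 ± 0.17). These 6 differences, without Mga library 2, were 1.59, 1.44, 1.16, 1.31, -0.74 and -0.84. The counts were then 15 higher and 2 lower, and they were 9 and 1 without L3mbtl2 library 1 and 10 and 1 without L3mbtl2 library 2. With only these 2 groups in the fit 6 members were called, all higher. In Mga knockout 2 members were higher and 5 lower than in Pcgf6 knockout, against 12% and 10.6% of all genes, with Hk2 (-1.03 ± 0.10, adjusted p = 0.00059) and Egln3 (-1.41 ± 0.21, adjusted p = 0.00343) among the lower, at -1.08 and -1.62 without Mga library 2. That count changed to 4 higher and 17 lower without Mga library 2, to 6 and 6 without Mga library 1, to 0 and 2 without Pcgf6 library 1 and to 1 and 3 without Pcgf6 library 2. The number of all genes called in each pair moved with the library left out as well, as given further below. These shifts in the member counts are therefore not a result about the members alone. In L3mbtl2 knockout 2 members were higher and 19 lower than in Pcgf6 knockout, against 16.6% and 13.9% of all genes. The 2 higher were Hif1a (0.70 ± 0.18, adjusted p = 0.0191) and Kdm3a (0.60 ± 0.19, adjusted p = 0.0405), and the lower of smallest p were Pfkm (-1.64 ± 0.12, adjusted p = 0.000144) and Egln3 (-3.05 ± 0.23, adjusted p = 0.000184). Without any 1 of the 4 libraries of these groups no member was called higher and 11 to 13 lower.

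Genes of the same pathway outside the list were read from the same fit, with the 4 of smallest p per set and knockout named. Their counts are read against all genes tested, of which 22.8% rose and 16.7% fell in Mga (32.7% and 22.7% without Mga library 2), 23.4% and 16.7% in L3mbtl2 and 5.45% and 4.62% in Pcgf6 knockout. Of 14 regulators of the HIF pathway, 3 rose and 0 fell in Mga, 5 rose and 1 fell in L3mbtl2, and 2 rose and 1 fell in Pcgf6 knockout. The Mga count was 5 up and 2 down without library 2, and the 21.4% that rose with it is close to the share of all genes. Vhl, the substrate receptor of the ligase that destroys HIF alpha subunits, was at 25.8, 14.4 and 20.9 FPKM in the Mga knockout libraries, 35.5 and 36.3 in L3mbtl2 knockout, 10.1 and 9.92 in Pcgf6 knockout and 9.21, 9.21 and 9.58 in wild type. Every knockout library lay above every wild type library, and of the Mga libraries the one labelled replicate 2 was lowest. Vhl rose by 1.93 ± 0.20 in L3mbtl2 knockout (limma adjusted p = 0.000273) and rose by 1.08 ± 0.18 in Mga knockout (adjusted p = 0.00223), or 1.31 without Mga library 2, on chromosome 6 with medians of 0.23 and 0.28. Cul2, the scaffold of that ligase, rose by 0.43 ± 0.07 in Mga, 0.61 ± 0.08 in L3mbtl2 and 0.36 ± 0.08 in Pcgf6 knockout (adjusted p = 0.0028, 0.000856 and 0.0306), and its adaptor subunit Elob rose by 0.32 ± 0.08 in Mga knockout (adjusted p = 0.012). With Mga library 2 left out, Cul2 had 0.37 and Elob 0.31 in Mga knockout. Epas1, which encodes HIF-2 alpha, was at 23.4, 14.4 and 24.1 FPKM in the Mga knockout libraries, 34.9 and 34.5 in L3mbtl2 knockout, 26.4 and 26.6 in Pcgf6 knockout and 14.9, 15 and 15.5 in wild type. The L3mbtl2 and Pcgf6 libraries and Mga libraries 1 and 3 lay above wild type, and Mga library 2 below. Epas1 rose by 1.19 ± 0.19 in L3mbtl2 knockout (adjusted p = 0.00203) and rose by 0.81 ± 0.19 in Pcgf6 knockout (adjusted p = 0.035), and had 0.41 ± 0.17 in Mga knockout, or 0.65 without Mga library 2 (adjusted p = 4.42e-05). Hif3a, a HIF alpha subunit whose short forms inhibit the others, fell by 2.43 ± 0.32 in L3mbtl2 knockout (adjusted p = 0.000817) to a mean of 0.484 FPKM against 3.05 in wild type, and Crebbp, a HIF coactivator, fell by 0.54 ± 0.12 in Pcgf6 knockout (adjusted p = 0.0225). The Mga rise of Elob was lost without wild type library 1 (0.0503), and the Pcgf6 calls of Cul2, Epas1 and Crebbp without either Pcgf6 library or any 1 wild type library (up to 0.23), the first 2 also without either L3mbtl2 library.

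Of 37 tested HIF targets outside the list, 9 rose and 7 fell in Mga, 6 rose and 8 fell in L3mbtl2, and 2 rose and 3 fell in Pcgf6 knockout. These are 24.3% up and 18.9% down in Mga and 16.2% and 21.6% in L3mbtl2 knockout, near the shares of all genes (22.8% and 16.7%, 23.4% and 16.7%), and 9 rose and 10 fell in Mga knockout without library 2. In L3mbtl2 knockout Bhlhe40, a transcriptional repressor, fell by 2.47 ± 0.18 (limma adjusted p = 5.27e-05), Selenbp1 fell by 2.11 ± 0.19 (adjusted p = 0.000157) and the cytokine Mif fell by 0.99 ± 0.10 (adjusted p = 0.000215), while Rbpj, the DNA-binding partner of Notch, rose by 0.87 ± 0.07 (adjusted p = 7.43e-05). In Mga knockout the collagen lysyl hydroxylase Plod2 rose by 1.43 ± 0.10 (adjusted p = 3.53e-05) and the lysyl oxidase Lox rose by 1.94 ± 0.29 (adjusted p = 0.00139). Higd1a, which encodes a mitochondrial protein, rose there by 0.72 ± 0.10 (adjusted p = 0.0011), and the carbonic anhydrase Car12 fell by 2.40 ± 0.22 (adjusted p = 0.000143). Lox is also in the fibroblast marker list and is itself counted in that sum. The sum was 489, 149.7 and 167 FPKM in the Mga libraries, against 139 to 140.1 in wild type. Lox alone was at 91.3, 37 and 40.5 FPKM in the Mga libraries, against 13.6, 13 and 13.6 in wild type. Leaving out Mga library 2, these Mga values were 1.44, 2.17, 0.67 and -2.44, and all 8 calls held without any 1 library. In Pcgf6 knockout Plod2 and Ppp1r3c, a glycogen-targeting subunit of protein phosphatase 1, rose by 0.44 ± 0.11 and 1.21 ± 0.30, and the protein disulfide isomerase P4hb and the lysyl oxidase Loxl2 fell by 0.46 ± 0.10 and 1.07 ± 0.26 (adjusted p between 0.0288 and 0.0411). These 4 Pcgf6 calls were lost without any wild type, L3mbtl2 or Pcgf6 library (adjusted p up to 0.268).

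Of 15 tested isozymes and transporters outside the list, 2 rose and 6 fell in Mga, 2 rose and 5 fell in L3mbtl2, and 1 rose and 2 fell in Pcgf6 knockout. The falls are 40% of the list in Mga and 33.3% in L3mbtl2 knockout, against 16.7% of all genes in each, and the rises 13.3% in each, against 22.8% and 23.4%. The Mga count without library 2 was 3 up and 7 down. Ldhb, the lactate dehydrogenase subunit that favours pyruvate formation, was at 169.6, 142 and 105 FPKM in the Mga knockout libraries, 32.5 and 31.5 in L3mbtl2 knockout, 90.1 and 91.3 in Pcgf6 knockout and 105, 112 and 112 in wild type. Both L3mbtl2 libraries lay far below all others, so that both main subunits of the enzyme fell there, and Ldhb fell by 1.77 ± 0.16 (limma adjusted p = 0.000173). Slc16a1, the lactate transporter MCT1, fell by 0.41 ± 0.09 in Mga and fell by 0.44 ± 0.10 in L3mbtl2 knockout (adjusted p = 0.00677 and 0.00773). Pgam2, the muscle mutase, fell by 0.99 ± 0.20 in Mga, 1.31 ± 0.22 in L3mbtl2 and 0.99 ± 0.22 in Pcgf6 knockout (adjusted p = 0.00532, 0.00241 and 0.0266). In Mga knockout Bpgm, which makes 2,3-bisphosphoglycerate, rose by 0.53 ± 0.11 and Hk3 fell by 1.76 ± 0.37 (adjusted p = 0.00635 and 0.00655), and in L3mbtl2 knockout the transporter Slc2a6 fell by 1.45 ± 0.26 (adjusted p = 0.00303). In Pcgf6 knockout the muscle enolase Eno3 fell by 1.06 ± 0.19 (adjusted p = 0.0112). The 1 rise there was that of the testis-type dehydrogenase Ldhc, with a log2 fold change of 2.00 ± 0.33. Ldhc was at 1.83 and 1.76 FPKM in the Pcgf6 libraries, against 0.371, 0.45 and 0.309 in wild type. It passed the filter on low values only through these 2 Pcgf6 libraries, so its call follows in part from the filter and is no separate support. In Mga knockout without library 2, the values were -0.32 for Slc16a1, -0.87 for Pgam2, 0.6 for Bpgm and -1.35 for Hk3. Leaving out 1 library ended the L3mbtl2 call of Slc16a1 (without L3mbtl2 library 1, adjusted p = 0.0779), the Pcgf6 call of Eno3 (without wild type library 2 or either Pcgf6 library, up to 0.123) and the Pcgf6 call of Pgam2 (without any wild type or L3mbtl2 library or Pcgf6 library 2, up to 0.198). Ldhc was not tested without either Pcgf6 library, since it then missed the filter on low values. Pgam2 and Eno3 lie on chromosome 11, whose median was -0.23 in Mga and -0.31 in Pcgf6 knockout.

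At the entry of pyruvate into the mitochondrion and the regulation of glycolysis, 7 of 18 genes rose and 3 fell in Mga, 4 rose and 2 fell in L3mbtl2, and 1 rose and 0 fell in Pcgf6 knockout. That is 38.9% up and 16.7% down in Mga, against 22.8% and 16.7% of all genes, and 22.2% and 11.1% in L3mbtl2 knockout, against 23.4% and 16.7%. Leaving out Mga library 2 gave 9 up and 3 down in Mga knockout. Pdha1, the catalytic subunit of pyruvate dehydrogenase, was at 22.9, 35.5 and 24.7 FPKM in the Mga knockout libraries, 25.5 and 25.2 in L3mbtl2 knockout, 39.1 and 40.3 in Pcgf6 knockout and 53.1, 53.5 and 51.8 in wild type. No knockout library reached wild type, and it fell by 0.95 ± 0.14 in Mga and fell by 1.06 ± 0.16 in L3mbtl2 knockout (limma adjusted p = 0.00145 and 0.00149), with -0.41 ± 0.16 in Pcgf6 knockout. Pdhx, the component that binds the E3 enzyme of the complex, rose by 0.94 ± 0.10 in L3mbtl2 knockout (adjusted p = 0.000356) and rose by 0.43 ± 0.10 in Pcgf6 knockout (adjusted p = 0.0352). In Mga knockout pyruvate carboxylase Pcx rose by 1.32 ± 0.17, the mitochondrial pyruvate carrier subunit Mpc1 rose by 1.5 ± 0.30 and Tigar, which lowers fructose 2,6-bisphosphate, rose by 0.51 ± 0.11 (adjusted p = 0.000657, 0.00498 and 0.00645). Of the other enzymes of fructose 2,6-bisphosphate, Pfkfb2 rose by 1.35 ± 0.22 and Pfkfb1 fell by 0.97 ± 0.17 in L3mbtl2 knockout (adjusted p = 0.00198 and 0.00272). The Pcgf6 rise of Pdhx was lost without any wild type, L3mbtl2 or Pcgf6 library (adjusted p up to 0.229), and the other calls named here held without any 1 library. The Mga values were, without library 2, -1.15 for Pdha1, 1.27 for Pcx, 1.67 for Mpc1 and 0.55 for Tigar.

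In the branches that leave glycolysis, the pentose phosphate and serine pathways, 3 of 12 genes rose and 4 fell in Mga, 1 rose and 8 fell in L3mbtl2, and 0 rose and 1 fell in Pcgf6 knockout. That is 25% up and 33.3% down in Mga, against 22.8% and 16.7% of all genes, and 8.33% and 66.7% in L3mbtl2 knockout, against 23.4% and 16.7%. In Mga knockout 3 rose and 6 fell when library 2 was left out. G6pdx, the first enzyme of the pentose phosphate pathway, was at 25, 26.9 and 19.3 FPKM in the Mga knockout libraries, 23.2 and 24.5 in L3mbtl2 knockout, 27.6 and 27.2 in Pcgf6 knockout and 48.5, 48.4 and 49.2 in wild type. Every knockout library lay below every wild type library, and it fell by 1.05 ± 0.11, 1.03 ± 0.13 and 0.83 ± 0.13 in Mga, L3mbtl2 and Pcgf6 knockout (limma adjusted p = 0.000315, 0.000597 and 0.00684). Phgdh, the first enzyme of serine synthesis, was at 54, 49.6 and 35.4 FPKM in the Mga knockout libraries, 28.4 and 30.1 in L3mbtl2 knockout, 94.2 and 97.2 in Pcgf6 knockout and 102, 104 and 106 in wild type. No knockout library reached the wild type range, and the L3mbtl2 libraries were lowest. Phgdh fell by 1.83 ± 0.15 in L3mbtl2 and fell by 1.19 ± 0.14 in Mga knockout (adjusted p = 0.000115 and 0.000429). In L3mbtl2 knockout the next enzyme of that pathway, Psat1, fell by 1.27 ± 0.20 and the glycine-forming enzyme Shmt1 fell by 1.44 ± 0.17 (adjusted p = 0.0016 and 0.000542). In Mga knockout transketolase Tkt fell by 0.43 ± 0.08 and the lactonase Pgls rose by 0.55 ± 0.11 (adjusted p = 0.00403 and 0.00494). The Pcgf6 fall of G6pdx was lost without either Pcgf6 library (adjusted p up to 0.081), and the others held without any 1 library. Mga values without library 2 were -1.15 for G6pdx, -1.25 for Phgdh, -0.36 for Tkt and 0.48 for Pgls.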

How the data were processed

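RNA sequencing gave 1 FPKM value for each of 30460 Ensembl genes in each of the 10 libraries. The authors deposited these FPKM values, and per the submitters' processing notes Bowtie2 2.2.3, TopHat2 2.0.12, HTSeq 0.6.0 and the GRCm38 build were used. The sources used here do not give how genes were counted or the library total taken, and the library kit named in the labels does not mark strand. Symbols came from GENCODE M21. Reads behind the values were recovered as whole numbers within 0.005 for 77.8% of genes at the annotated exon length and for 22.1% at a length found from the values.

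The 15731 genes that reached 0.5 FPKM in 2 or more libraries were tested on log2(FPKM + 0.1) with limma 3.58.1 in R 4.3.3 (empirical Bayes with trend, all 10 libraries, group as the only term, Benjamini-Hochberg adjustment over all tested genes, threshold 0.05), so fold changes of low genes are understated. The script was tested on simulated data. The members and lists were chosen with earlier results of these data known. Each member is accounted for. Every library is printed for members called with a log2 fold change of at least 1 in size and for Slc2a1, Hk2, Gpi1, Aldoa, Gapdh, Pgk1, Pkm, Ldha, Pdk1, Hif1a, Egln1 and Vegfa. From each of the related lists (other isozymes and transporters, regulation and pyruvate entry, HIF regulators, other HIF targets, pentose phosphate and serine branches, MYC, MAX and MXD family) up to 4 genes of smallest p per comparison with wild type are named. Alternatives were another pseudocount, no filter, size factors, a spread for each group, only the 2 groups compared, a replicate block, no shifted chromosomes, limma-voom on recovered reads, and leaving out each library.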

Additional observations from a re-analysis of the deposited data

Results flagged for a closer look

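At 5 members called in 2 knockouts in opposite directions against wild type, the knockouts differed when set against each other, 6 differences in all. These members were picked by their opposite calls in the same fit. The differences follow largely from that choice and are no separate support. Ddit4 was higher in Mga than in L3mbtl2 knockout by a log2 difference of 1.70 (limma adjusted p = 0.00033), P4ha2 by 1.29 (adjusted p = 0.000125) and P4ha1 by 1.24 (adjusted p = 0.000785). Hk2 was lower in Mga knockout, with a log2 difference of -0.69 against L3mbtl2 knockout (adjusted p = 0.00228) and of -1.03 against Pcgf6 knockout (adjusted p = 0.00059). Pfkm was lower in L3mbtl2 than in Pcgf6 knockout, with a log2 difference of -1.64 (adjusted p = 0.000144). Without Mga library 2, whose Mga level lay within the wild type range, the differences from L3mbtl2 knockout were 1.59 for Ddit4, 1.31 for P4ha2, 1.34 for P4ha1 and -0.74 for Hk2. That of Hk2 from Pcgf6 knockout was -1.08. All 6 passed without any 1 of the 10 libraries. The opposite calls against wild type were less stable. The Mga calls of Ddit4, P4ha2 and Hk2 held in 7 of the 10 fits that left out 1 library. The L3mbtl2 calls of P4ha1 and Hk2 held in 5, and the Pcgf6 calls of Hk2 and Pfkm in 8 and 3. The other calls of these members named here held in all 10. The difference of Hk2 between Mga and L3mbtl2 knockout did not pass with only those 2 groups in the fit (adjusted p = 0.0672). Groups of 2 or 3 libraries were not searched by a set rule for single outlying libraries. Mga library 2 was singled out by its Mga level alone.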

How the results depend on the processing

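No result changed direction while past the threshold under the alternatives run. Of the counts of changed genes against wild type, Mga knockout (6210) gave 3709 with a spread for each group, 4054 with only the 2 groups compared and 4001 without shifted chromosomes, L3mbtl2 knockout (6297) gave 11110, 10525 and 3975, and Pcgf6 knockout (1584) gave 7503, 7096 and 795. Between knockouts, Mga against L3mbtl2 (3591) gave 634 with only the 2 groups and 1967 without shifted chromosomes, Mga against Pcgf6 (3550) gave 2283, 231 and 2264, and L3mbtl2 against Pcgf6 (4803) gave 10429, 9809 and 2815. Members changed were 7 with only the 2 groups and 5 without shifted chromosomes in Mga knockout (11), 17 without shifted chromosomes in L3mbtl2 knockout (27), 20, 25 and 2 under the 3 settings in Pcgf6 knockout (4), 6 and 11 between Mga and L3mbtl2 knockout (18), and 1 with only the 2 groups between Mga and Pcgf6 knockout (7). Without shifted chromosomes only 21 members were tested. Under size factors the summed glycolytic level was 4258 FPKM in L3mbtl2 and 6211 in Pcgf6 knockout against 5665 in wild type. The causes were not tested.

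Leaving out 1 library at a time, changed genes ran over 4198 to 8647 in Mga, 2829 to 8515 in L3mbtl2 and 154 to 3975 in Pcgf6 knockout against wild type, and over 1098 to 5862, 772 to 6983 and 1635 to 7359 for Mga against L3mbtl2, Mga against Pcgf6 and L3mbtl2 against Pcgf6 knockout. Changed members ran over 7 to 22, 14 to 30 and 0 to 11 against wild type, and over 10 to 26, 2 to 21 and 11 to 27 in the same order of pairs.

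Replicate numbers did not pair the samples, with correlations of deviations from group means of -0.0196 to 0.0349 between libraries of the same number, and not every library correlated best with its own number. With the replicate block 992 genes changed in Pcgf6 knockout, against 1584 without it, and 10 members in Mga knockout, against 11. Libraries of a group number 2 or 3, so leaving 1 out of a pair assumes that the lone library varies like the other groups.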

Other observations

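MYC, MAX and their partners, a family of E-box factors that drive or repress growth and glycolytic genes and to which MGA belongs, were measured in the same fit. Of 12 genes, 3 rose and 3 fell in Mga, 2 rose and 2 fell in L3mbtl2, and 0 rose and 2 fell in Pcgf6 knockout. That is 25% in each direction in Mga, against 22.8% of all genes up and 16.7% down, and 16.7% in each in L3mbtl2 knockout, against 23.4% and 16.7%. In Pcgf6 knockout the falls are 16.7%, against 4.62%. Without Mga library 2 the Mga count was 3 up and 4 down, where 32.7% and 22.7% of all genes did so. The 12 genes include the targeted gene Mga itself. It was called lower in Mga knockout only without library 2, which was set aside for its Mga level, so 1 of those 4 falls is its own. Mycn, which encodes N-MYC, was at 46.6, 49.3 and 43.9 FPKM in the Mga knockout libraries, 22.7 and 23.4 in L3mbtl2 knockout, 41.1 and 40.7 in Pcgf6 knockout and 81.6, 82.4 and 85.2 in wild type. Every knockout library lay below every wild type library. Mycn fell by 1.84 ± 0.07 on the log2 scale in L3mbtl2, 1.02 ± 0.07 in Pcgf6 and 0.83 ± 0.06 in Mga knockout (limma adjusted p = 2.18e-06, 0.000209 and 5.75e-05), and these calls held without any 1 library. Myc was at 32.6, 11.6 and 19.5 FPKM in the Mga knockout libraries, 45.2 and 44.8 in L3mbtl2 knockout, 29.9 and 29.3 in Pcgf6 knockout and 28.2, 27.4 and 28.1 in wild type. The L3mbtl2 libraries were highest and Mga libraries 2 and 3 lowest, and it passed in no comparison with wild type, with -0.52 ± 0.30, 0.69 ± 0.33 and 0.08 ± 0.33 in Mga, L3mbtl2 and Pcgf6 knockout. Mnt, a MAX partner that represses, was at 11.5, 15.8 and 10.6 FPKM in the Mga knockout libraries, 15 and 15.6 in L3mbtl2 knockout, 16.1 and 15.9 in Pcgf6 knockout and 25.3, 24.3 and 25.1 in wild type. It fell by 0.99 ± 0.13 in Mga, 0.70 ± 0.15 in L3mbtl2 and 0.64 ± 0.15 in Pcgf6 knockout (adjusted p = 0.000868, 0.00686 and 0.032). The L3mbtl2 call was lost without L3mbtl2 library 1 (adjusted p = 0.0575) and the Pcgf6 call without any wild type, L3mbtl2 or Pcgf6 library (up to 0.201). Mlx fell by 0.48 ± 0.08 and Mxd4 rose by 1.12 ± 0.35 in Mga knockout (adjusted p = 0.00234 and 0.0315), and the Mxd4 call held in 3 of 10 fits that left out 1 library and was lost without any wild type or L3mbtl2 library and without Mga library 1 or 3 (adjusted p up to 0.0836). Mxd1 and Mxd3 rose by 0.98 ± 0.21 and 0.82 ± 0.22 in L3mbtl2 knockout (adjusted p = 0.00697 and 0.0177), both lost without either L3mbtl2 library (up to 0.056 and 0.11), and Mxd3 also without wild type library 1 or 3. The Mga values without library 2 were -0.88 for Mycn, -0.15 for Myc, -1.16 for Mnt, -0.56 for Mlx and 1.5 for Mxd4.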
